A study of Mus musculus with 6 samples.

Results

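Respiratory complexes II and III, the electron carrier cytochrome c and the ATP synthase were followed in mouse ventricles at postnatal day 14 (P14) and postnatal day 1 (P1). Genes were taken by symbol: Sdha to Sdhd and the Sdhaf genes for complex II, the Uqc genes with Cyc1 and Bcs1l for complex III, Cycs for cytochrome c, and the Atp5 genes with Atpif1, Usmg5, Atpaf1 and Atpaf2 for ATP synthase. These symbols matched 38 of the 14495 genes in the table, of which 6 belonged to complex II, 11 to complex III, 1 to cytochrome c and 20 to ATP synthase. Both ages were male C57BL/6 mice with no treatment, and they differed by age alone as far as the labels say. The atria had been removed from the ventricles and the septum left in place, although the tissue field of the labels names the left ventricle. Each age had 3 libraries of poly(A)-selected RNA, each from 3 pooled hearts, so 9 hearts stood behind each age and every value is a mean over whole tissue of several animals.

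Complex II, succinate dehydrogenase, oxidises succinate in the citric acid cycle and passes the electrons to ubiquinone, with 4 subunits that are all encoded in the nucleus. Complex III takes electrons from ubiquinone to cytochrome c and moves protons out of the mitochondrial matrix, and ATP synthase lets protons back through its membrane sector FO to drive ATP formation in its catalytic sector F1. The heart makes most of its ATP this way, and cardiomyocytes are known to move from glycolysis and lactate towards fatty acid oxidation in the weeks after birth. Levels below are CPM, read counts set relative to library size after TMM (trimmed mean of M-values) scaling, and a gene is said to have risen or fallen when its Benjamini-Hochberg adjusted p in edgeR's quasi-likelihood test, over all 14301 genes tested, was under 0.05. Errors given with log2 fold changes are standard errors.

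Library totals were between 9104230 and 15725993 counts at P14 and between 5916557 and 17353933 counts at P1. All 8 cardiomyocyte markers on a fixed list (Myh6, Tnnt2, Tnni3, Actn2, Ryr2, Myl2, Actc1 and Pln) were present in every library. Their summed level was 97011, 87731 and 77631 CPM at P14, against 59710.4, 57536 and 60387 CPM at P1, and 5 of the 8 rose (2 of 8 without P14 replicate 2 or P1 replicate 3), where 21.8% of all genes tested rose and 22% fell. Of 6 endothelial markers 1 rose, of 6 fibroblast markers 1 rose, and all 5 measured macrophage markers rose, with summed levels of 154 to 172 CPM at P14 and 48.9 to 53.9 CPM at P1. Of 3 erythroid markers 2 rose (402 to 631 CPM at P14 and 75.4 to 209 CPM at P1, summed), and of 4 smooth muscle markers 2 rose and 2 fell. Of 4 atrial markers 2 fell (421 to 567 CPM at P14 and 774 to 1634 CPM at P1, summed). No skeletal muscle marker of 3 passed the test, and of the fat list Cidea rose, while Adipoq, Ucp1 and Plin1 had no row and were not analysed here. With the replicate number as a block, 1 erythroid, 2 fibroblast and 1 skeletal muscle markers rose and 3 atrial markers fell. In that fit 24.9% of all genes rose and 3435 of 14301 fell. Scaled by library totals alone, without TMM, 3 cardiomyocyte, 4 macrophage and 1 smooth muscle markers rose and no endothelial marker did. On that scale 4 endothelial, 3 atrial and 2 skeletal muscle markers fell, where 11.3% of all genes rose and 39.1% fell. With each library corrected for transcript GC content and length, 3 fibroblast and 3 erythroid markers rose. In that fit 1 endothelial, 3 atrial and 1 skeletal muscle markers fell, where 26.3% of all genes rose and 3679 of 14301 fell. Leaving out 1 library at a time moved each count of risen or fallen markers other than those of cardiomyocytes by at most 1. In whole tissue, fewer cells of a type and less RNA per cell cannot be told apart, and the part of cell composition in the results below was not tested.

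Under TMM scaling 20 of the 28 structural subunits of these complexes rose at P14 (11 on library totals alone, where 1 fell), and none of the 6 assembly factors among the 38 genes passed the test. Of the 38 genes 21 rose, none fell and 17 did not pass the test, while 21.8% of all genes tested rose and 22% fell. On library totals alone 12 rose and 3 fell, where 11.3% of all genes rose and 39.1% fell. The median log2 fold change was 0.64, with a range of −0.23 to 2.21, beside a median of −0.01 over all genes tested. In 25 of the 38 every P14 library lay above every P1 library and in none did the reverse hold, against 27.3% of all genes in the first direction and 27.5% in the second. The median log2 fold change was 0.88 over the structural subunits of the 3 complexes and 0.23 over the assembly factors (Sdhaf1, Sdhaf2, Uqcc, Bcs1l, Atpaf1 and Atpaf2). With each library corrected for transcript GC content and length, Sdhaf1, Sdhaf2 and Uqcc passed (edgeR adjusted p = 0.0498, 0.00321 and 0.0318), and with the replicate block added Sdhaf1 did not (0.0526). With only 6 genes, a count of none is not far from the 21.8% of all genes that rose. Mean levels of these 6 at P14 ran from 7.22 CPM (Atpaf1) to 112 CPM (Uqcc). Outside the 38 genes, the assembly factors Lyrm7, Ttc19 and 1110001J03Rik rose (log2 fold change 0.76, 0.63 and 1.27). Tmem70 and Oxa1l, also outside the 38, did not pass. The difference between subunits and assembly factors is given as counts and medians and was not tested.

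**Figure D1:**
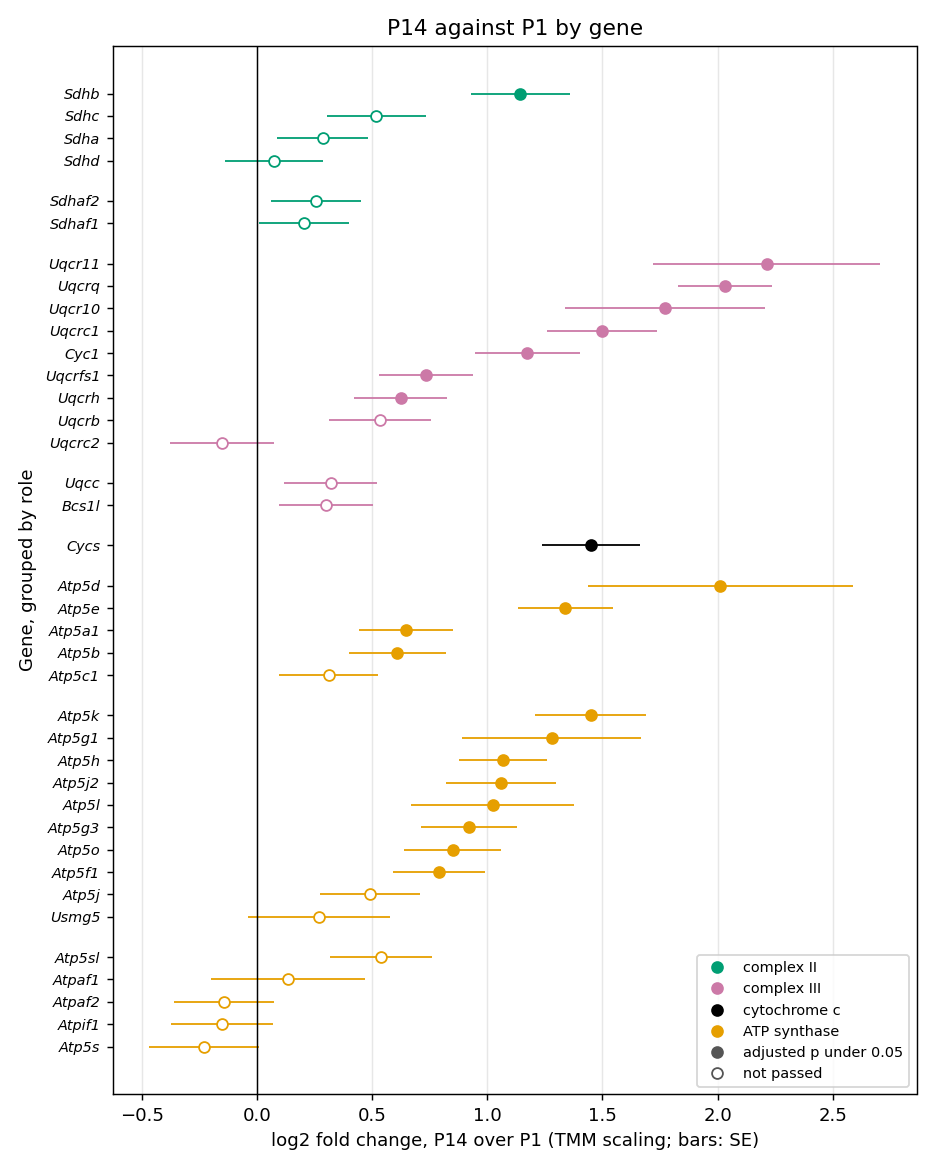
Log2 fold change of P14 over P1 with its standard error for each of the 38 genes, grouped by complex and role, from edgeR's fit to 3 libraries per age. The subunits of complex III and ATP synthase lie between −0.15 and 2.21, and the assembly factors between −0.14 and 0.32.

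As a share of all counts, which does not use the scaling, the 38 genes took 5.21%, 4.35% and 3.77% at P14, against 3.62%, 3.46% and 2.99% at P1. Summed over the genes the scaled level was 57688, 52619 and 45083 CPM at P14 and 29057, 27004 and 29776.5 CPM at P1. On both measures the ages did not overlap, and P14 replicate 1 was the highest library. Most of the sum came from ATP synthase, at 39092, 35079 and 29669.5 CPM at P14 and 19691, 19072.5 and 20323 CPM at P1. Complex III summed to 12604, 12365.5 and 10499 CPM at P14 and 5705, 4657 and 5825 CPM at P1, and complex II to 5949.7, 5137 and 4876 CPM at P14 and 3647, 3257 and 3617 CPM at P1.

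The 4 promoters below are shown because they stand for the largest rise over all 6 libraries (Uqcr11, second to Uqcrq without P1 replicate 2), for an ATP synthase gene with the binding motif of NRF1, a factor known for respiratory chain promoters (Atp5k), for the most abundant FO gene, which carries the binding element of the estrogen-related receptors (Atp5g3), and for a complex II subunit that did not pass the test (Sdhd). Each run is the 250 bases before the RefSeq gene start, build GRCm38.p6, read 5′ to 3′ on the gene's strand, with the motif found in capitals. They lie at chr10:80406822-80407071 for Uqcr11, chr5:108434400-108434649 for Atp5k, chr2:73911327-73911576 for Atp5g3 and chr9:50603850-50604099 for Sdhd, all on the minus strand.
Uqcr11: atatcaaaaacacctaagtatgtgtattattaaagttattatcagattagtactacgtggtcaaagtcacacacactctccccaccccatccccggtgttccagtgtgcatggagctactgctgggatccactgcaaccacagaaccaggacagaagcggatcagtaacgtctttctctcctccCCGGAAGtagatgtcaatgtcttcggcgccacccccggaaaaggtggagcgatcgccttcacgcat
Atp5k: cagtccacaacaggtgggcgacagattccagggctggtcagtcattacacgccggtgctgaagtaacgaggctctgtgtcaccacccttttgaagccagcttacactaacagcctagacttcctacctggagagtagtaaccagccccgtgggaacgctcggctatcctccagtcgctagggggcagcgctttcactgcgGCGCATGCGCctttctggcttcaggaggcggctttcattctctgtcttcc
Atp5g3: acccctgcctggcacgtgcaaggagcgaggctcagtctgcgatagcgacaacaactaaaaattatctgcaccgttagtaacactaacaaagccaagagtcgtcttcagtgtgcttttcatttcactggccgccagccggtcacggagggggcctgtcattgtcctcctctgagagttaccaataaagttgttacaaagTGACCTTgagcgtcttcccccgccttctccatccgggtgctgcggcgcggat
Sdhd: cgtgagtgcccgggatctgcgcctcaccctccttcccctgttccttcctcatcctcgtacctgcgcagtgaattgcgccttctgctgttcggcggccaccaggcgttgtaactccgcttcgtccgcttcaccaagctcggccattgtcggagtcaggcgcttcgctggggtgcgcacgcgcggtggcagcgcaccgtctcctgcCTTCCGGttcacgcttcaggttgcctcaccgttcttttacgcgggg

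The capitals mark CCGGAAG, the core of the ETS family to which GABP (NRF2) belongs, starting 66 bases before the start of Uqcr11 and, on the other strand, 46 bases before that of Sdhd. In Atp5k they mark the palindromic NRF1 motif, 50 bases before the start, and in Atp5g3 the element AAGGTCA on the other strand, 52 bases before the start. All distances are from the RefSeq start. The GENCODE starts of Atp5k (108434448) and Uqcr11 (80406830), used for the positions below, lie inside the runs shown. Promoters of 32 of the 38 genes were used, 18 that rose and 14 that did not pass. That of Atp5a1, which rose, was left out, and those of Cyc1, Sdhc, Uqcrc2, Uqcrb and Uqcrq were not found. On both strands, CCGGAAG stood in 8 of the 32 (5 that rose and 3 that did not pass), beside 6.91% of 32851 promoters of the same length. The element AAGGTCA stood in 3 (Atp5g3, Atp5l and Atpif1; 4.08% of all promoters), and the NRF1 motif, the 10 letters in capitals above, in Atp5k alone (0.782%). The YY1 motif AAGATGGC stood in Atp5sl alone (1.56%), and the SP1 box GGGCGG in 13, of which 4 rose and 9 did not pass (32.7%). None of these motifs stood in the promoters of Uqcrc1, Uqcrfs1, Uqcr10, Cycs, Atp5d, Atp5g1, Atp5j2 and Atp5o, which rose. The same was so for Sdha, Atp5c1 and Atpaf1, which did not pass. No 2 of these motifs overlapped, and a match describes the letters and not binding.

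In complex II, Sdhb rose and the other 5 genes did not pass the test. A count of 1 in 6 is close to the 21.8% of all genes tested that rose. Sdhb, the iron-sulfur subunit that carries electrons from the flavin towards ubiquinone (GRCm38 chromosome 4, 140961203 to 140979193, plus strand), had 2488, 2386 and 2160.3 CPM at P14, against 1258, 822 and 1104 CPM at P1. The ages did not overlap, and its log2 fold change was 1.14 ± 0.22 (SE; edgeR adjusted p = 7.26e-04), a 2.21-fold higher level at P14. The flavoprotein Sdha, which holds the succinate site (GRCm38 chromosome 13, 74322254 to 74350280, minus strand), had 1561, 1451 and 1357 CPM at P14 and 1043, 1289 and 1252 CPM at P1. Every P14 library of Sdha was the higher, but by little, and its log2 fold change of 0.29 ± 0.20 did not pass (edgeR adjusted p = 0.258).

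The 2 subunits that anchor the enzyme in the membrane and bind ubiquinone did not pass either. Sdhc had 909.6, 644 and 628 CPM at P14 and 563, 438 and 523 CPM at P1, again without overlap (log2 fold change 0.52 ± 0.21, edgeR adjusted p = 0.0641). Sdhd (GRCm38 chromosome 9, 50596357 to 50603812, minus strand) had 879, 563 and 639 CPM at P14 and 707, 616 and 654 CPM at P1, so that P14 replicates 2 and 3 lay among or below the P1 libraries (log2 fold change 0.07 ± 0.21, edgeR adjusted p = 0.804). Sdhaf1, which protects the iron-sulfur clusters on their way into Sdhb, and Sdhaf2, which is needed for attaching the flavin to Sdha, overlapped between ages. Sdhaf1 had 45.1, 41.8 and 35.4 CPM at P14 and 31.6, 35.7 and 39.1 CPM at P1 (log2 fold change 0.21 ± 0.20, edgeR adjusted p = 0.418). Sdhaf2 had 67.6, 51.4 and 56.3 CPM at P14 and 45.8, 56.4 and 44.6 CPM at P1 (log2 fold change 0.26 ± 0.20, edgeR adjusted p = 0.311). The median over the 6 genes was 0.27, and with each library corrected for transcript GC content and length it was 0.57 and 5 of the 6 rose, Sdhd being the exception, beside 26.3% of all genes in that fit.

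In complex III, 7 of 9 subunits rose and neither assembly factor did, beside 21.8% of all genes tested. The median over the 11 genes was 0.73. The 3 catalytic subunits differ from the rest in carrying redox groups: cytochrome b is encoded in the mitochondrial genome, and Cyc1 and Uqcrfs1 in the nucleus. Cyc1, the cytochrome c1 heme subunit that hands electrons to cytochrome c (GRCm38 chromosome 15, 76343523 to 76346260, plus strand), had 2800.3, 2781 and 2304 CPM at P14 and 1186, 865 and 1447 CPM at P1. The ages stood apart, and Cyc1 rose by 1.17 ± 0.23 on the log2 scale (edgeR adjusted p = 9.05e-04). Uqcrfs1, the Rieske iron-sulfur protein (GRCm38 chromosome 13, 30540308 to 30545362, minus strand), had 965, 747 and 702 CPM at P14 and 452, 517 and 484 CPM at P1. It rose by a smaller amount, 0.73 ± 0.20 on the log2 scale (edgeR adjusted p = 0.0095).

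The core proteins Uqcrc1 and Uqcrc2, which form the large domain in the matrix and descend from processing peptidases, had different values. Uqcrc1 (GRCm38 chromosome 9, 108936633 to 108949623, plus strand) had 2675, 2460.3 and 2078 CPM at P14 and 985, 585 and 984 CPM at P1, and rose by 1.498 ± 0.24 on the log2 scale (edgeR adjusted p = 1.93e-04). Uqcrc2 (GRCm38 chromosome 7, 120635176 to 120659524, plus strand) had 981, 635 and 676 CPM at P14 and 759, 1014 and 771 CPM at P1. The Uqcrc2 libraries of the 2 ages overlapped, and its log2 fold change of −0.15 ± 0.23 did not pass (edgeR adjusted p = 0.615). It was 0.16 with the correction for GC content and length and −0.61 on library totals alone. An exon of Uqcrc2 overlaps one of Pdzd9 on the opposite strand, and 74.6% of its 36-base windows are unique to it, against 99.3% for Uqcrc1.

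The small subunits without redox groups held the 2 largest rises of the 38 genes, Uqcr11 above Uqcrq over all 6 libraries and Uqcrq (1.94) above Uqcr11 (1.80) without P1 replicate 2. Uqcr11 (GRCm38 chromosome 10, 80402997 to 80406830, minus strand) had 937, 977 and 749 CPM at P14 and 302, 65.1 and 208 CPM at P1, and rose by 2.21 ± 0.49 on the log2 scale (edgeR adjusted p = 0.00776). Uqcrq, which sits beside cytochrome b (GRCm38 chromosome 11, 53427922 to 53430831, minus strand), had 1045, 1169.7 and 1028 CPM at P14 and 265, 231 and 297 CPM at P1, with the ages far apart. Its log2 fold change of 2.03 ± 0.20 had a smaller error than that of Uqcr11 and the lowest adjusted p of the 38 (edgeR adjusted p = 3.46e-06). Uqcr10 had 1231, 1848 and 1512 CPM at P14 and 629, 166 and 549 CPM at P1 (log2 fold change 1.77 ± 0.43, edgeR adjusted p = 0.00942). In Uqcr11 and Uqcr10 the lowest P1 library was replicate 2, far under the other two.

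The hinge protein Uqcrh, which helps cytochrome c1 meet cytochrome c, had 1754, 1583 and 1278 CPM at P14 and 987, 1048 and 959.8 CPM at P1 (log2 fold change 0.62 ± 0.20, edgeR adjusted p = 0.0221). Its call ended on leaving out replicate 1 or 3 of P1 or replicate 1 or 2 of P14, with edgeR adjusted p of 0.0644 to 0.0815. Uqcrb had 40.8, 31.9 and 35.8 CPM at P14 and 27.4, 28.9 and 18.2 CPM at P1, with no overlap but outside the threshold (log2 fold change 0.53 ± 0.22, edgeR adjusted p = 0.0649). With the replicate number as a block Uqcrb passed (edgeR adjusted p = 0.0301). Uqcc, needed for making cytochrome b, had 131, 97.9 and 106 CPM at P14 and 84.3, 105 and 79.1 CPM at P1 (log2 fold change 0.32 ± 0.20, edgeR adjusted p = 0.214). Bcs1l, which moves the Rieske protein into the complex, had 43.5, 34.9 and 30.01 CPM at P14 and 28.7, 30.3 and 29.3 CPM at P1 (log2 fold change 0.30 ± 0.20, edgeR adjusted p = 0.252). Both assembly factors overlapped between ages.

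Cycs, the mobile cytochrome c of somatic tissue (GRCm38 chromosome 6, 50562563 to 50566538, minus strand), had 42.02, 36.6 and 39.1 CPM at P14 and 13.3, 17.3 and 12.3 CPM at P1. The ages did not overlap, and the log2 fold change was 1.45 ± 0.21 (edgeR adjusted p = 9.52e-05). Its level was low beside its partner Cyc1, and per kilobase of transcript Cycs had 13.5, 11.7 and 12.5 CPM at P14 against 1842, 1829 and 1516 CPM for Cyc1 in the same libraries. Of the 36-base windows of the Cycs transcript 69.04% are unique to it, and 25 pseudogenes share windows with it. The effect of shared windows on its level was not tested.

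**Figure D2:**
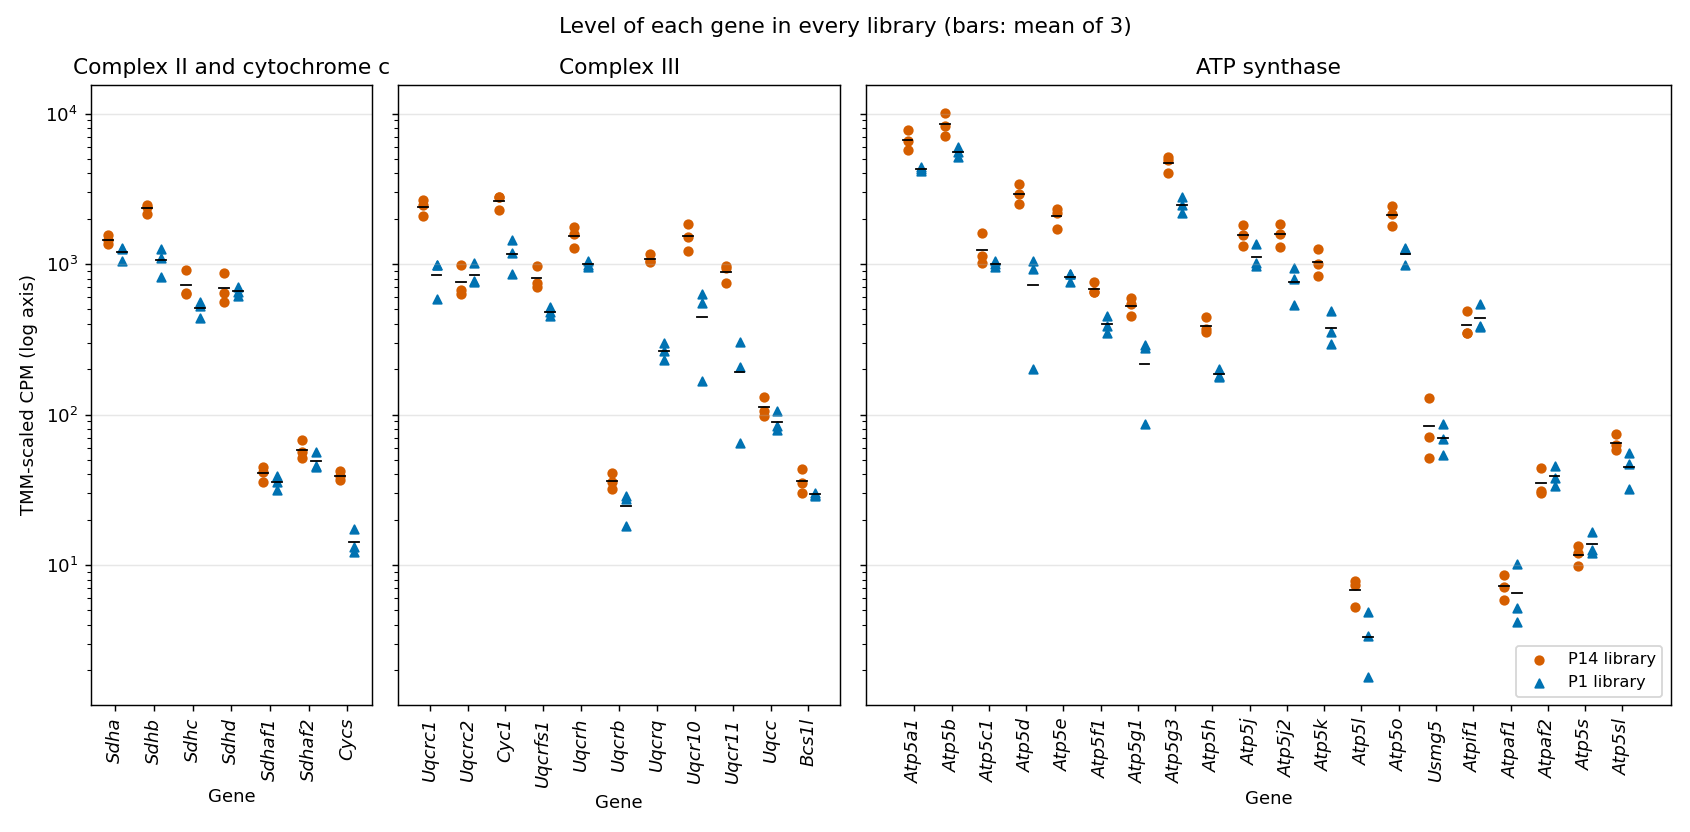
TMM-scaled CPM of the 38 genes in each library on a log10 axis, with 1 point per P14 (circle) or P1 (triangle) library and a short line at the mean of 3. P14 points lie above all P1 points for 25 genes. The lowest P1 point is replicate 2 for many genes, and it lies furthest below the others for Atp5d, Uqcr11, Uqcr10 and Atp5g1. Sdhb, Uqcrc1, Cyc1, Uqcrq, Atp5j2 and Atp5k are among the other genes with replicate 2 lowest at P1.

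In ATP synthase, 12 of 15 subunits rose and none of the other 5 genes did, beside 21.8% of all genes tested. The median over the 20 genes was 0.72. In the catalytic sector F1, 4 of 5 subunits rose. Atp5b, the beta subunit that holds the catalytic sites (GRCm38 chromosome 10, 128083273 to 128090391, plus strand), was the most abundant of the 38 genes, with 10075, 8293 and 7062 CPM at P14 and 5138, 5561 and 5961 CPM at P1. It rose by 0.61 ± 0.21 on the log2 scale (edgeR adjusted p = 0.0289). Atp5a1, the alpha subunit, which alternates with beta around the F1 ring (GRCm38 chromosome 18, 77773729 to 77782869, plus strand), had 7743, 6622 and 5697 CPM at P14 and 4131, 4254 and 4430.3 CPM at P1. Its log2 fold change was 0.65 ± 0.20 (edgeR adjusted p = 0.0191).

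The calls of both large F1 subunits were close to the threshold. With the replicate block Atp5b did not pass (edgeR adjusted p = 0.0539). Leaving out replicate 1 or 3 of P1 or replicate 1 or 2 of P14 also ended the call of Atp5b (edgeR adjusted p of 0.0514 to 0.113). For Atp5a1 the call ended on leaving out replicate 1 of either age or P14 replicate 2 (edgeR adjusted p of 0.064 to 0.0736). On library totals alone both missed the threshold, at log2 fold changes of 0.16 for Atp5b and 0.20 for Atp5a1.

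The other 3 F1 subunits form the central stalk that turns inside the ring. Atp5d, the delta subunit (GRCm38 chromosome 10, 80138632 to 80145818, plus strand), had 2505, 3393 and 2904 CPM at P14 and 1055, 201 and 927 CPM at P1, the largest fold change of ATP synthase at 2.01 ± 0.58 (edgeR adjusted p = 0.0285). P1 replicate 2 was low, and without it the log2 fold change was 1.56 (edgeR adjusted p = 4.92e-06). Without P1 replicate 3 or any 1 P14 library, which leaves P1 replicate 2 in, the call ended (edgeR adjusted p of 0.052 to 0.0858), as it did with the replicate block (edgeR adjusted p = 0.108). Atp5e, the epsilon subunit, had 2196, 2337 and 1703 CPM at P14 and 854, 759 and 853 CPM at P1 (log2 fold change 1.34 ± 0.21, edgeR adjusted p = 1.51e-04). The gamma subunit Atp5c1 (GRCm38 chromosome 2, 10056016 to 10080510, minus strand) had 1600.4, 1126 and 1019 CPM at P14 and 1006, 1049 and 964 CPM at P1, overlapping between ages (log2 fold change 0.31 ± 0.22, edgeR adjusted p = 0.262).

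In the membrane sector FO and the peripheral stalk 8 of 10 subunits rose, beside 21.8% of all genes tested. The c subunit, whose ring turns as protons pass, is made from several genes of which Atp5g1 and Atp5g3 encode the same mature protein and were measured. Atp5g3 (GRCm38 chromosome 2, 73908447 to 73911326, minus strand) had 5136, 4882 and 4049 CPM at P14 and 2185, 2783 and 2464 CPM at P1 (log2 fold change 0.92 ± 0.21, edgeR adjusted p = 0.00255). Atp5g1 (GRCm38 chromosome 11, 96068852 to 96075670, minus strand) had 541, 593 and 451 CPM at P14 and 279, 86.2 and 289 CPM at P1 (log2 fold change 1.28 ± 0.39, edgeR adjusted p = 0.0239). Atp5g1 missed the threshold without P14 replicate 1 or P14 replicate 2 (edgeR adjusted p of 0.0727 and 0.0774), and its log2 fold change was 0.89 without P1 replicate 2.

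Of the counts of both c subunit genes, Atp5g1 took 9.53%, 10.8% and 10.0% at P14, against 11.3%, 3.004% and 10.5% at P1. The shares of 5 libraries lay between 9.53% and 11.3%, and P1 replicate 2 stood alone. The mean share was 10.1% ± 0.66 at P14 and 8.27% ± 4.58 at P1 (SD, n = 3 each). The means differed by 1.86 percentage points (2-sided exact permutation test over 3 against 3 libraries, p = 0.9, where the smallest possible p is 0.1). Only 33.0% of the windows of Atp5g1 are unique to it, since 5 pseudogenes share windows, while Atp5g3 shares none.

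The peripheral stalk holds the catalytic head still against the turning ring. Its subunits Atp5f1 (subunit b), Atp5h (subunit d) and Atp5o (OSCP) rose, and Atp5j (coupling factor 6) did not pass. Atp5o had 2415, 2149.7 and 1783 CPM at P14 and 1285, 987 and 1250.4 CPM at P1 (log2 fold change 0.85 ± 0.21, edgeR adjusted p = 0.00491). Atp5h had 443, 371 and 353 CPM at P14 and 180.0, 199.5 and 176 CPM at P1 (log2 fold change 1.07 ± 0.19, edgeR adjusted p = 5.13e-04). Neither overlapped between ages, and the same was so for Atp5f1, with 759, 648 and 655 CPM at P14 and 390.3, 453 and 349.6 CPM at P1 (log2 fold change 0.79 ± 0.20, edgeR adjusted p = 0.00521). Atp5j had 1816, 1566 and 1314 CPM at P14 and 1016, 1356 and 966 CPM at P1, where P1 replicate 2 lay above the lowest P14 library (log2 fold change 0.49 ± 0.22, edgeR adjusted p = 0.0804).

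The small membrane subunits e, f and g, encoded by Atp5k, Atp5j2 and Atp5l, rose, and DAPIT, encoded by Usmg5, did not pass; subunits e and g are known for joining ATP synthase into dimers along the cristae. Atp5k (GRCm38 chromosome 5, 108433244 to 108434448, minus strand) had 1259.8, 1005 and 837 CPM at P14 and 488, 294 and 354 CPM at P1, the largest fold change of the membrane and stalk subunits (log2 fold change 1.45 ± 0.24, edgeR adjusted p = 2.62e-04). Atp5j2 had 1839.9, 1585 and 1305 CPM at P14 and 935, 538 and 798 CPM at P1 (log2 fold change 1.06 ± 0.24, edgeR adjusted p = 0.00262). Usmg5 (GRCm38 chromosome 19, 47083464 to 47090647, minus strand) had 129.6, 51.1 and 71.5 CPM at P14 and 86.6, 68.6 and 54.1 CPM at P1, with P14 replicate 1 above all and P14 replicate 2 below all (log2 fold change 0.27 ± 0.31, edgeR adjusted p = 0.508). Atp5l stood at single digits, with 7.39, 7.83 and 5.28 CPM at P14 and 4.86, 1.81 and 3.37 CPM at P1 (log2 fold change 1.02 ± 0.35, edgeR adjusted p = 0.0293). Its call ended without any 1 library other than P14 replicate 3 or P1 replicate 1 (edgeR adjusted p of 0.0651 to 0.1, and 0.0686 with a log2 fold change of 0.68 without P1 replicate 2). Only 14.7% of its windows are unique to it and 18 pseudogenes share windows with it, so its level is uncertain.

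The inhibitor and the assembly genes of ATP synthase did not pass the test. Atpif1, which stops ATP synthase from running backwards when the membrane potential falls (GRCm38 chromosome 4, 132530555 to 132533659, minus strand), had 485, 347 and 347 CPM at P14 and 539.9, 390.3 and 381 CPM at P1. The ages overlapped (log2 fold change −0.15 ± 0.22, edgeR adjusted p = 0.603). Atpaf1 and Atpaf2 are chaperones that bind the beta and alpha subunits before the ring closes. Atpaf2 had 44.3, 30.1 and 31.3 CPM at P14 and 45.7, 33.5 and 38.1 CPM at P1 (log2 fold change −0.14 ± 0.22, edgeR adjusted p = 0.617), and Atpaf1 had 7.18, 5.84 and 8.63 CPM at P14 and 4.16, 10.1 and 5.22 CPM at P1 (log2 fold change 0.13 ± 0.33, edgeR adjusted p = 0.771).

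The remaining Atp5 symbols, Atp5s and Atp5sl, do not name subunits of the core enzyme. Atp5s, known as coupling factor B, had 13.4, 9.83 and 11.98 CPM at P14 and 12.03, 16.6 and 12.6 CPM at P1 (log2 fold change −0.23 ± 0.24, edgeR adjusted p = 0.46). Atp5sl, whose product is now known as an assembly factor of complex I, had 74.7, 57.9 and 62.3 CPM at P14 and 55.4, 32.2 and 46.8 CPM at P1. It did not overlap between ages but missed the threshold (log2 fold change 0.54 ± 0.22, edgeR adjusted p = 0.0627), and it passed with the replicate block (edgeR adjusted p = 0.0203).

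Several genes rich in G and C were low in 1 library. P1 replicate 2 had less than 50% of the mean CPM of the other P1 libraries for 5 of the 38 genes. These were Atp5d (61.1% G and C in its transcript), Uqcr11 (58.9%), Atp5g1 (56.4%), Uqcr10 (55.5%) and the scarce Atp5l (47.8%), beside a median of 50.6% over the 38 genes. Over the 38 genes, GC content and the log2 ratio of P1 replicate 2 to the mean of the other P1 libraries (0.5 CPM added to each) had a Pearson r of −0.67 (Spearman rho −0.62), and over 14128 genes r was −0.66 (rho −0.71). GC content and the log2 fold change between ages had an r of 0.53 over the 38 genes (rho 0.50), and 0.40 (rho 0.42) without P1 replicate 2. Over 14128 genes and all 6 libraries r was 0.23 (rho 0.26). The points share the same libraries, and genes are not independent replicates. Without P1 replicate 2, the log2 fold changes were 1.80 for Uqcr11, 1.38 for Uqcr10, 1.56 for Atp5d and 0.89 for Atp5g1, all called. In that fit 23 of the 38 rose, beside 23.9% of all genes tested there: Uqcrb, Uqcc and Atp5j passed and Atp5l did not.

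**Figure D3:**
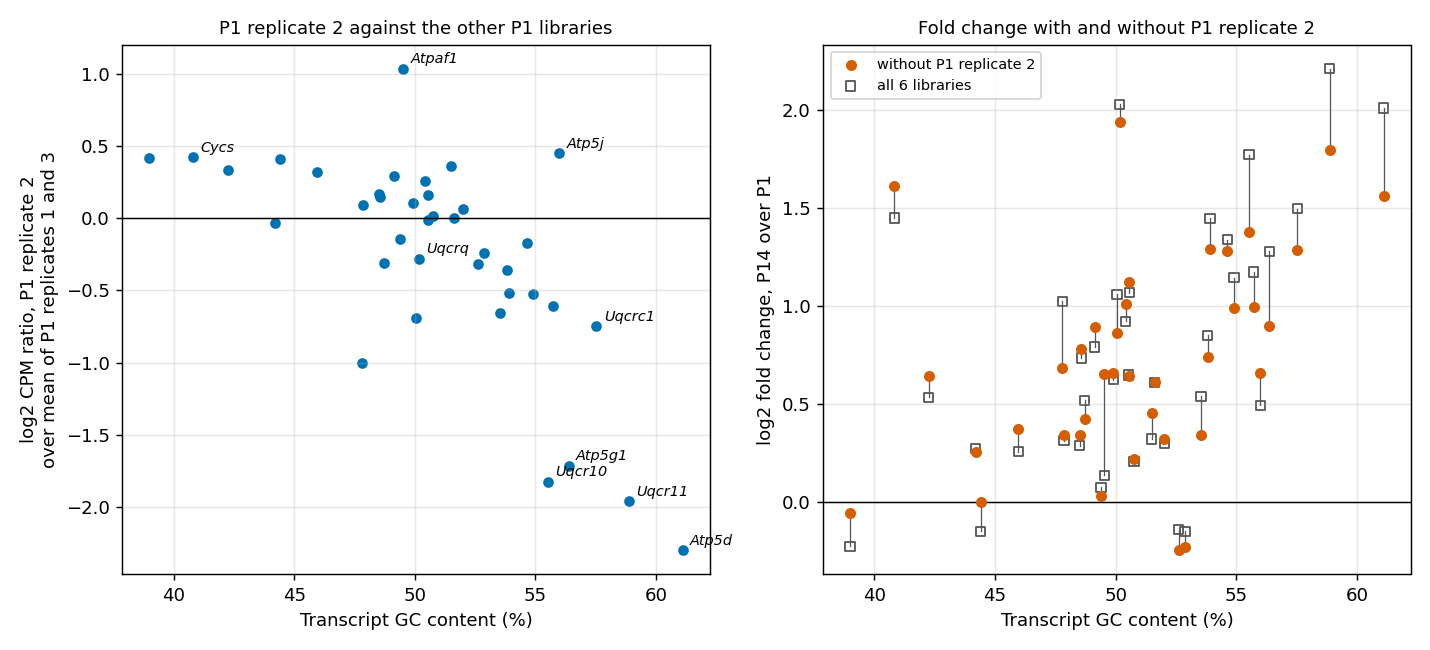
Both panels have transcript GC content (percent) on the horizontal axis and 1 point per gene: left, the log2 ratio of P1 replicate 2 to the mean of the other P1 libraries; right, the log2 fold change of P14 over P1 without P1 replicate 2 (filled) and with all 6 libraries (open), joined by a line. Uqcr11, Uqcr10, Atp5d and Atp5g1 have the lowest ratios and their fold changes are smaller without that library.

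The scaling of the libraries moved the counts. With library totals alone the median of all genes was −0.47 and not −0.01, 11.3% of all genes rose and 39.1% fell. On that scale 12 of the 38 rose and 3 fell, and the median was 0.18: Uqcrc2 at −0.61 (edgeR adjusted p = 0.0433), Atpif1 at −0.61 (0.0416) and Atp5s at −0.70 (0.0428) were the ones that fell. With that scaling the calls of Uqcrfs1, Uqcrh, Atp5a1, Atp5b, Atp5d, Atp5f1, Atp5g3, Atp5l and Atp5o ended. With DESeq2's size factors 21 rose, beside 21.7% of all genes, with DESeq2's own test 21 (21.5%), with no filter 21 (21.6%) and with the stricter filter 21 (22.8%). At an adjusted p under 0.01 edgeR called 15 higher (14.8% of all genes), with the replicate block 21 (24.9%), and with the GC and length correction 29 (26.3%) or, with the block added, 29 (27.5%). Leaving out P14 replicates 1, 2 and 3 in turn gave 15 (19.4% of all genes), 15 (16.5%) and 20 (17.5%) risen members, and leaving out P1 replicates 1, 2 and 3 gave 19 (20.8%), 23 (23.9%) and 17 (18.4%). The genes called higher under every setting tried were 11 in number: Sdhb, Uqcrc1, Cyc1, Uqcrq, Uqcr10, Uqcr11, Cycs, Atp5e, Atp5h, Atp5j2 and Atp5k. Sdhd, Bcs1l, Atpaf1 and Atpaf2 were called under none.

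**Figure D4:**
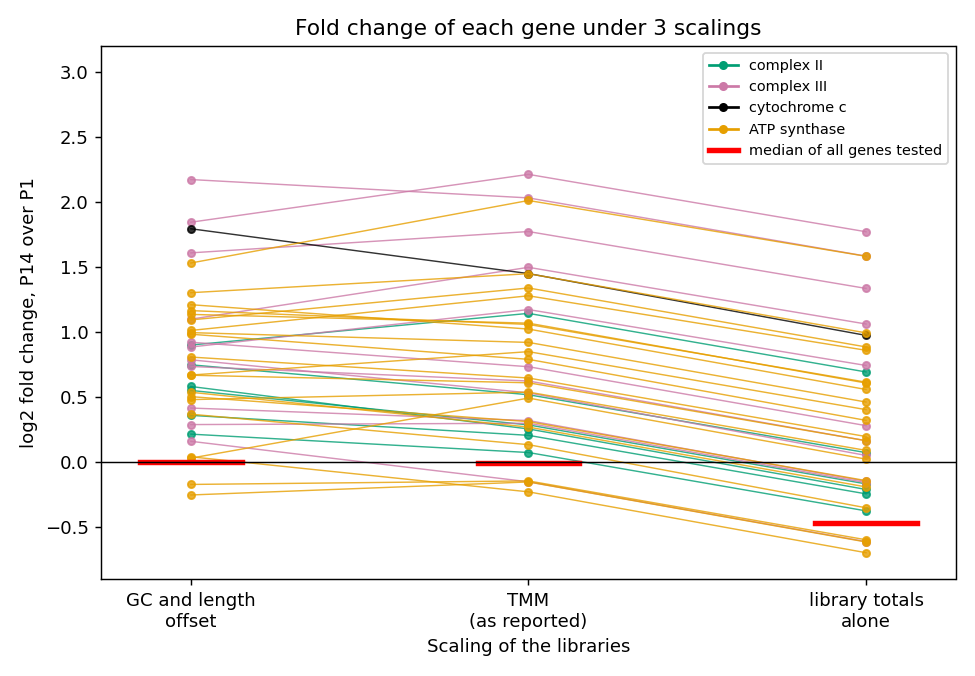
Log2 fold change of P14 over P1 of each of the 38 genes under 3 scalings, the GC and length offset, TMM and library totals alone, with a line per gene coloured by complex and a red bar at the median of all genes tested. On library totals alone the genes and the red bar both lie lower than under TMM, the bar at −0.47 against −0.01.

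Reads of 36 bases can fit more than 1 gene, and this bears on the levels of several members. In 12 of the 38 genes every 36-base window of the transcript is unique among annotated transcripts, and 6 of these rose (Sdhb, Uqcrfs1, Uqcrq, Atp5d, Atp5e and Atp5g3). In 8 genes fewer than 60% of windows are unique (Sdhaf1, Uqcrb, Atp5f1, Atp5g1, Atp5h, Atp5l, Atp5o and Usmg5), and 5 of those rose, so their levels are uncertain. Exons of Atp5a1 (Haus1), Atp5d (Cbarp), Atp5f1 (Wdr77), Atp5j (Gabpa), Atpif1 (Gm12999), Sdhaf1 (E130208F15Rik), Sdhaf2 (Cpsf7) and Usmg5 (Taf5) overlap the named gene on the opposite strand. Exons of Atp5l (Gm30934), Atp5o (D430001F17Rik and Gm15976) and Uqcrb (Gm10767) do so too. No source used here says whether counting used strand, and without strand, reads within such an overlap cannot be told apart. Atp5o also overlaps another gene annotated as Atp5o on its own strand, where strand would not separate the reads. Windows were compared on both strands, and 100% were unique in Atp5d, 99.7% in Sdhaf2 and 96.1% in Atp5a1, but 30.7% in Sdhaf1.

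Partners outside the 38 genes were read from lists of the pathway. Mitochondrially encoded mt-Cytb, cytochrome b of complex III, had 37678, 37303 and 41592 CPM at P14 and 20657, 24718 and 19747 CPM at P1, and rose (log2 fold change 0.84 ± 0.20, edgeR adjusted p = 0.0039). It did not pass on library totals alone (log2 fold change 0.37, edgeR adjusted p = 0.224). For mt-Atp6 of ATP synthase only 0.464% of windows are unique, and its 1.27 to 2.45 CPM at P14 and 0.925 to 1.85 CPM at P1 are no usable level. Of 6 further genes, assembly factors and the heme lyase Hccs, 3 rose (Lyrm7 and Ttc19, both of which act on the Rieske protein in complex III, and 1110001J03Rik, a RefSeq synonym of Fmc1, an ATP synthase assembly factor) and none fell, beside 21.8% of all genes higher and 22% lower. Without P14 replicate 1, P1 replicate 1 or P1 replicate 3 the count was 1, since Lyrm7 (edgeR adjusted p of 0.0725 to 0.0861) and Ttc19 (0.0624 to 0.131) missed the threshold, and Ttc19 also missed it without P14 replicate 2 (0.12) or P14 replicate 3 (0.0824). Scaled by library totals alone, 1 of the 6 rose and 1 fell, beside 11.3% and 39.1% of all genes.

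A list of 13 genes covered ubiquinone, the carrier between complexes II and III. Of these 8 rose and none fell, beside 21.8% and 22% of all genes, and their median was 0.80 on the log2 scale. With the replicate block 9 rose, Coq4 being added (edgeR adjusted p = 0.0318, against 0.0679 without the block). Scaled by library totals alone, 4 rose and 2 fell, beside 11.3% and 39.1% of all genes. With the correction for GC content and length 9 rose, beside 26.3% of all genes, and Adck4 fell (log2 fold change −0.81, edgeR adjusted p = 0.0108). The count of risen genes was 6 without P14 replicate 1 or P1 replicate 3, beside 19.4% and 18.4% of all genes. Coq10a had 371, 362 and 327 CPM at P14 and 59.3, 60.6 and 69.7 CPM at P1 (log2 fold change 2.48, edgeR adjusted p = 4.42e-07). Adck3, a kinase-like protein needed for ubiquinone, had 867, 759 and 649.95 CPM at P14 and 195, 154 and 209.8 CPM at P1 (log2 fold change 2.03, edgeR adjusted p = 5.43e-06). Among the carriers that bring ADP and phosphate to ATP synthase, Slc25a4 rose (log2 fold change 1.31, edgeR adjusted p = 1.17e-04). The log2 fold change of Slc25a3 was 0.38 (edgeR adjusted p = 0.143) and that of Slc25a5 was −0.44 (edgeR adjusted p = 0.0826), and on library totals alone Slc25a5 fell (log2 fold change −0.88, edgeR adjusted p = 0.00257). Slc25a3 passed with the correction for GC content and length (log2 fold change 0.59, edgeR adjusted p = 0.00398).

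Of 9 general mitochondrial genes (Vdac1, Vdac2, Vdac3, Tomm20, Tomm22, Tomm40, Cs, Hspd1 and Tfam) none rose and 2 fell, a share of fallen genes like the 22% of all genes tested. Their median log2 fold change was −0.20, beside 0.64 over the 38 genes and −0.01 over all genes. Tomm20, a receptor of the outer membrane import pore, fell by 0.98 on the log2 scale (edgeR adjusted p = 0.00157), and Vdac2, a porin of the outer membrane, by 0.53 (edgeR adjusted p = 0.04). The call of Vdac2 ended with the GC and length correction (edgeR adjusted p = 0.0635) and without P14 replicate 2 (0.175), P14 replicate 3 (0.125), P1 replicate 1 (0.0714) or P1 replicate 3 (0.067). Under library totals alone 5 of the 9 fell and the median was −0.66, beside 39.1% and a median of −0.47 over all genes. With the correction for GC content and length 2 of the 9 rose and 1 fell, at a median of −0.0064. In that fit 26.3% of all genes rose and 3679 of 14301 fell. Without P1 replicate 1 or P1 replicate 2, 1 of the 9 rose, beside 20.8% and 23.9% of all genes. The difference between this list and the 38 genes was not tested.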

How the data were processed

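Ventricular mRNA of 6 libraries was analysed. The authors deposited whole-number read counts per gene, with no normalisation, for 14495 genes, each with at least 60 counts over the libraries. Per the submitters' processing notes, GRCm38 (mm10) is the build, and bedtools and edgeR 3.2.4 are listed without a role. Aligner, read counter and strand setting are not given in those notes or the labels. All 6 sample columns were matched by age and replicate number.

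Counts were fitted in R 4.3.3 with edgeR 4.0.16 (robust quasi-likelihood F-test, age as the only term, all 6 libraries, TMM scaling, filterByExpr with a minimum count of 10), which tested 14301 genes and removed 194, and all 38 genes described here passed. P-values were 2-sided and adjusted by Benjamini and Hochberg over all genes tested. Standard errors were derived as the log2 fold change divided by the square root of F. The common biological coefficient of variation was 23%. CPM are counts scaled by the trimmed mean of M-values (TMM). The script was tested on simulated data. Positions, GC content, lengths and 36-base windows came from GENCODE M21 (GRCm38), found for 14316 genes, and promoters from RefSeq (GRCm38.p6).

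Libraries of the same replicate number deviated from their group means with correlations of 0.295, 0.112 and 0.102, and other pairs with −0.214 to 0.09. The labels state no pairing, and 0.112 and 0.102 lay close to the 0.09 of P14 replicate 3 with P1 replicate 2. Whether the numbers pair the libraries was left undecided. The fit described above therefore kept age as its only term, and the replicate block was an alternative. Blocked values stand beside calls that the block changed.

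Alternatives were DESeq2 size factors, library totals alone, no filter, a filter of over 5 CPM in 3 libraries, DESeq2 1.42.0, the replicate block, a GC and length offset (a spline with 4 degrees of freedom) alone and with the block, an adjusted p under 0.01, and leaving out each library. The genes and lists were chosen with earlier results of these data known. Given in full were 11 fixed genes (Sdha, Sdhb, Uqcrc1, Uqcrfs1, Cyc1, Cycs, Atp5a1, Atp5b, Atp5g1, Atp5g3 and Atpif1) and the largest and smallest change of each group of genes. Atp5g2 and mt-Atp8 were not analysed here.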

Additional observations from a re-analysis of the deposited data

How the results depend on the processing

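Over the 38 genes, the number that rose was 21 and lay between 15 and 23 when each library was left out in turn. For ATP synthase that number was 12 and lay between 7 and 12, with 7 without P14 replicate 1 or without P14 replicate 2, and at an adjusted p under 0.01 it was also 7. Complex II kept 1 and complex III had 6 to 9. On library totals alone 12 of the 38 rose and 3 fell, 5 rose and 2 fell in ATP synthase and 1 fell in complex III, and the median log2 fold change was 0.18 over all 38, −0.19 for complex II, 0.28 for complex III and 0.26 for ATP synthase. With the GC and length offset 5 genes of complex II rose (median 0.57), and with that offset and the replicate block 4 rose (median 0.56). The causes of these shifts were not tested.

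Signs changed only in genes that did not pass the test. On library totals alone the log2 fold change was −0.17 for Sdha, −0.37 for Sdhd, −0.24 for Sdhaf1, −0.21 for Sdhaf2, −0.15 for Uqcc, −0.16 for Bcs1l, −0.14 for Atp5c1, −0.19 for Usmg5 and −0.35 for Atpaf1. With the GC and length offset it was 0.16 for Uqcrc2 and 0.041 for Atp5s, and with the block as well 0.14 for Uqcrc2 and 0.029 for Atp5s. Leaving out each library gave −0.13 to 0.21 for Sdhd, −0.18 to 0.53 for Usmg5, −0.33 to 0.025 for Atpif1 and −0.14 to 0.65 for Atpaf1, and −0.78 to 3.38 percentage points for the P14 minus P1 share of Atp5g1. With the replicate block 21 of the 38 rose; Atp5b and Atp5d lost and Uqcrb and Atp5sl gained a call, and no other call of the 38 changed. DESeq2's size factors, DESeq2's test and both filters gave 21 risen genes.

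Depth limits the genes of few counts, Atp5l and Atpaf1 above all, and the p-values cover the spread of 3 pools per age.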
